A study of Mus musculus with 24 samples.

Results

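The comparison set CD8+ T cells against CD4+FOXP3+ regulatory T (Treg) cells from tumours of mice given an antibody to JAML. Its members were the 4 CD8 and the 4 Treg bulk RNA libraries that the labels place under anti-JAML (written antiAMICA1 there, from an older symbol of the gene), 8 of 24 libraries in all, and every gene of the count table was considered. The tumours were B16F10-OVA, melanoma cells of mouse origin carrying ovalbumin as a model antigen, and the antibody dose was 200 µg, given 1 day before tumour collection. The other 16 libraries, used for context, came from the same 2 sorted populations after an isotype control antibody or an antibody to PD-1, with 4 libraries in each of the 6 groups. All groups share the tumour line, and the sort itself defines the populations. A difference between them after 1 antibody does not by itself tell whether the antibody had a part in it. Each library was made from a small number of sorted cells with Smart-seq2, which copies whole transcripts of polyadenylated RNA.

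CD8+ T cells recognise peptides on MHC class I molecules and kill their targets with perforin and granzymes. Treg cells, defined by the transcription factor FOXP3, restrain other T cells through surface molecules such as CTLA-4 and through consumption of IL-2, and in tumours they carry many receptors of activated T cells. JAML is an adhesion and costimulatory receptor of T cells that binds CXADR on other cells.

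Depth was similar in the 8 libraries, at 11170918 to 19299446 counts, with 13257 to 14502 genes detected in CD8 and 13413 to 15158 in Treg libraries. The levels below are counts scaled to library size (CPM), and fold changes and their standard errors (SE) are from edgeR's quasi-likelihood test with Benjamini-Hochberg adjustment over 11950 genes with enough counts. CD8 libraries 2 and 4 stood apart from the other CD8 libraries: they held haemoglobin and other erythroid marker counts summing to 515 and 409 CPM, against 0.314 and 2.86 in CD8 libraries 3 and 1, and CD8 library 4 had the highest share of mitochondrial counts, 6.89%, against 1.54% to 3.54% in the other 7. Treg library 4 held 1479 CPM of the erythroid markers. Whether each library of a group stands for its own mouse is not stated in the labels. The p-values therefore reflect variation among libraries, part of which may be technical. In bulk RNA, fewer cells that express a gene and less RNA of it per cell cannot be told apart.

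The sorted proteins gave a check of the labels and are no finding. Cd8a (ENSMUSG00000053977.13, chr6:71373427-71379173 on the plus strand, mm10) was at 1605, 1134, 1758 and 1309 CPM in the CD8 libraries and had no count in the 4 Treg libraries. Cd4 was at 463, 446, 283 and 250.4 CPM in the Treg libraries and Foxp3 at 185, 122, 77.9 and 120.5 CPM, and neither had a count in a CD8 library. All 8 libraries matched their labels. Cd8b1, the nearby gene of the second CD8 chain, was less clear-cut. It was at 702 to 1246 CPM in the CD8 libraries and at 26.2, 27.3, 41.9 and 29.0 CPM in Treg libraries that held no Cd8a count.

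After anti-JAML, 248 of the 11950 genes tested (2.08%) differed between the populations at an adjusted p under 0.05. Of these, 87 (0.728%) were higher in CD8 and 161 (1.35%) were higher in Treg cells, and 242 of the 248 differed by over 2-fold. The 4 libraries of one population did not overlap the 4 of the other at 1362 genes (11.4%), 498 higher in CD8 (4.17%) and 864 higher in Treg (7.23%). This held for 247 of the 248 that passed the test, the exception being the T-cell receptor segment Trav7-4. The median log2 difference over all genes tested was -0.03. The number of calls changed when 1 library was left out: it was lowest, 82, without Treg library 2 and highest, 328, without CD8 library 2. It was 122, 145, 127, 111 and 109 without Treg 1, Treg 3, Treg 4, CD8 1 and CD8 3.

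**Figure D1:**
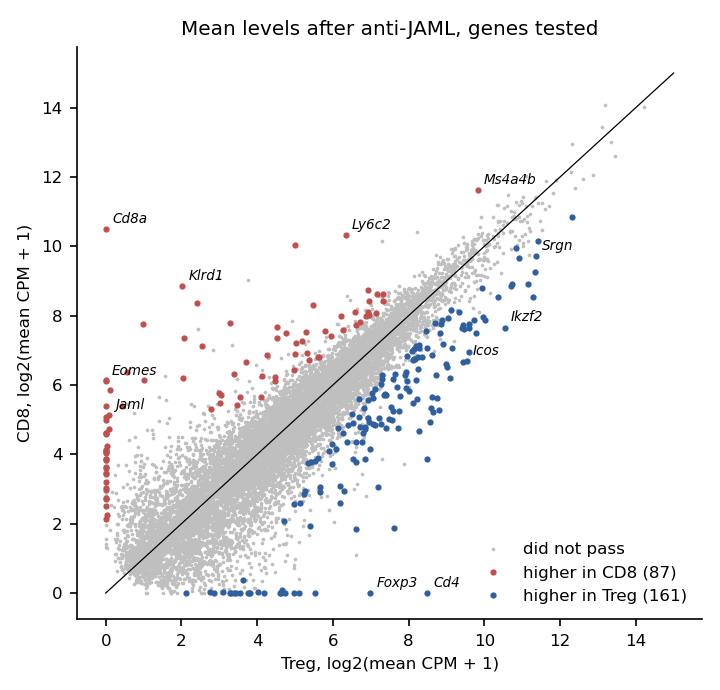
Mean CPM of each gene tested on a log2(CPM + 1) scale, Treg on the horizontal and CD8 on the vertical axis. Red points are the 87 genes higher in CD8, blue points the 161 higher in Treg, grey points those that did not pass; points on either axis had no count in the other population.

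Of 21 genes of Treg identity tested, 10 passed, all higher in Treg cells, namely Izumo1r, Foxp3, Ctla4, Ikzf2, Tnfrsf18, Il2ra, Tnfrsf4, Capg, Ccr8 and Ikzf4, and 16 had libraries that did not overlap. Over all genes tested, 1.35% passed as higher in Treg cells and 7.23% did not overlap with Treg higher. The median log2 difference of the list was -2.63. The list holds Foxp3, on which the cells were sorted.

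Izumo1r, which encodes folate receptor 4, a surface marker of Treg cells, was at 33.3, 21.0, 27.0 and 36.5 CPM in CD8 and at 319.6, 296, 499 and 394 CPM in Treg libraries. Every Treg library lay far above every CD8 library, a 12.8-fold difference (log2 -3.68, SE 0.28, edgeR adjusted p = 0.00033). Ikzf2 encodes Helios, a transcription factor of Treg cells. It stood at 174, 178, 116 and 335 CPM in CD8 and 1234, 1332, 1760.2 and 1616 CPM in Treg libraries, with CD8 library 4 the highest of its group and still far under the lowest Treg library (log2 -2.89, SE 0.33, edgeR adjusted p = 0.00334). Il2ra, the high-affinity chain of the IL-2 receptor, was 6.19-fold higher in Treg libraries, with means of 296 ± 62.8 against 47.8 ± 22.7 CPM (SD, n = 4 each, edgeR adjusted p = 0.00542).

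Checkpoint and costimulatory receptors were partly shared. Ctla4, an inhibitory receptor that competes for the ligands of CD28, was at 171, 114, 85 and 127 CPM in CD8 and at 802, 729, 733 and 849.9 CPM in Treg libraries. The groups lay far apart, with a 6.27-fold difference (edgeR adjusted p = 0.000918). Tigit, another inhibitory receptor, was 3.59-fold higher in Treg cells (466 ± 116 CPM in CD8, 1674 ± 236 CPM in Treg, SD, n = 4, edgeR adjusted p = 0.00401). Pdcd1, which encodes PD-1, did not pass: it was at 717, 687, 729 and 286 CPM in CD8 and 888, 1010.2, 406 and 600.3 CPM in Treg libraries, and the groups overlapped (log2 -0.26, SE 0.36, edgeR adjusted p = 0.867). CD8 library 4 was the lowest of all 8. Lag3 (log2 0.14, SE 0.32) and Havcr2, the gene of TIM-3 (log2 0.78, SE 0.31), did not pass either. Of 16 inhibitory receptors tested, 2 (Ctla4 and Tigit) were higher in Treg cells, against 1.35% of all genes tested. Higher in CD8 cells was 1 of the 16 (Cd160), against 0.728%. Without CD8 library 2, 4 were higher in Treg cells, and without any single library other than Treg 4 none was higher in CD8 cells.

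Among 19 receptors of the TNF family and other costimulatory molecules, 4 were higher in Treg cells and none in CD8 cells. The shares over all genes tested were 1.35% and 0.728%. Icos, the inducible costimulator, was at 124, 87.1, 119.8 and 81.1 CPM in CD8 and 626, 679, 905 and 761 CPM in Treg libraries, which did not overlap (7.22-fold, edgeR adjusted p = 0.000467). Tnfrsf18, which encodes GITR, was 4.83-fold higher (edgeR adjusted p = 0.00399), and Tnfrsf4, which encodes OX40, was 4.67-fold higher (edgeR adjusted p = 0.0131). The fourth, Tnfrsf1b or TNF receptor 2, was 4.31-fold higher but passed in 2 of the 8 fits that leave out 1 library, with an adjusted p up to 0.117. Without CD8 library 3, 2 of the 19 passed, and the Tnfrsf4 call was lost (adjusted p = 0.0567). Tnfrsf9, the gene of 4-1BB, a receptor of recently activated T cells, was named after its values were seen. It had means of 1099 ± 488 CPM in CD8 and 2086 ± 502 CPM in Treg libraries and did not pass (edgeR adjusted p = 0.269). In the deposited TPM, which allow levels of different genes to be set side by side, Tnfrsf4 and Tnfrsf9 were the highest of the list in both populations: Tnfrsf4 stood at 3882 ± 821 TPM in Treg and 847 ± 252 TPM in CD8 libraries, and Tnfrsf9 at 1834 ± 444 and 954 ± 303 TPM.

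**Figure D2:**
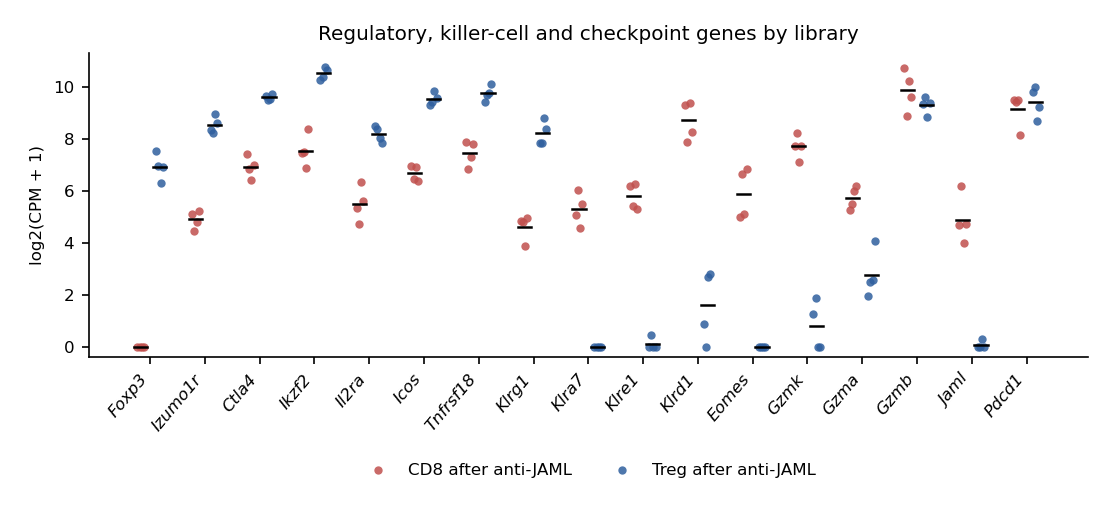
Levels of 17 genes in each of the 8 anti-JAML libraries as log2(CPM + 1); red points are CD8, blue points Treg, and each black line is the mean of the 4 log2 values. The 4 Treg libraries lie above the 4 CD8 libraries at Foxp3 through Klrg1 and below them at Klra7 through Gzma and at Jaml, while Gzmb and Pdcd1 overlap.

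Secreted and surface mediators of suppression followed. Of 15 tested, 4 were higher in Treg cells (1.35% over all genes tested): Ctla4, Tigit, Fgl2 and Ebi3. Fgl2, a secreted immunosuppressive protein, was at 9.83, 3.49, 8.60 and 32.1 CPM in CD8 and at 363, 480.3, 241 and 344 CPM in Treg libraries, which did not overlap (26.4-fold, edgeR adjusted p = 0.00576). Ebi3, a subunit of IL-35 and IL-27, was 11.7-fold higher (edgeR adjusted p = 0.0215); the call was lost without Treg 2, Treg 4, CD8 1 or CD8 3, with an adjusted p up to 0.0769. Il10, an anti-inflammatory cytokine, had counts in all 4 Treg libraries (175, 63.0, 74.6 and 151 CPM) and in CD8 library 2 alone among the CD8 libraries (24.1 CPM), and it did not pass (edgeR adjusted p = 0.322). Without CD8 library 2, the number of mediators called was 8.

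Of 23 transcription factors of CD4 and Treg cells, 6 were higher in Treg cells (1.35% over all genes tested) and none in CD8 cells. The 6 were Foxp3, Pparg, Maf, Rora, Ikzf2 and Ikzf4. The cells were sorted on Foxp3, so its call is no finding. Lists share members, so their counts are not separate results: Foxp3, Ikzf2 and Ikzf4 were also counted under Treg identity. So were Ctla4, Tnfrsf18, Tnfrsf4 and Ccr8, each a member of another list too. Tigit was counted under inhibitory receptors and mediators, Ebi3 under mediators and cytokines, and Cd160 under inhibitory and killer-cell receptors. Pparg, a nuclear receptor of lipid metabolism that marks tissue Treg cells, had no count in the 4 CD8 libraries and stood at 33.9, 58.2, 38.7 and 51.3 CPM in the Treg libraries. Against a floor of 3 counts over the CD8 group it was at least 888-fold higher in Treg cells (edgeR adjusted p = 0.001). Maf was at 0.781 to 6.91 CPM in CD8 and 168 to 238 CPM in Treg libraries, a 72.2-fold difference (edgeR adjusted p = 0.00314). Rora, another nuclear receptor, was 5.69-fold higher in Treg cells (edgeR adjusted p = 0.00314). Zbtb7b, which encodes ThPOK, the factor that commits thymocytes to the CD4 lineage, was named after its values were seen. It was at 0 to 1.44 CPM in CD8 and 14.8 to 25.7 CPM in Treg libraries and lay just outside the threshold (edgeR adjusted p = 0.0538).

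Of the lists, that of killer-cell receptors held the most genes higher in CD8 cells. These receptors on T cells mark effector and memory-type states. Of 17 tested, 8 were higher in CD8 cells (Klra7, Klre1, Klra3, Crtam, Klra6, Klrd1, Klra9 and Cd160), against 0.728% of all genes tested. Higher in Treg cells was 1 of the 17 (Klrg1), against 1.35%, and the median log2 difference was 5.37. The Cd160 call was lost without any single library other than Treg 4, with an adjusted p up to 0.164. Klra7, a Ly49 receptor for MHC class I, was at 32.8, 65.0, 23 and 43.6 CPM in CD8 libraries and had no count in Treg libraries, which puts it at least 899.9-fold higher in CD8 (edgeR adjusted p = 0.00268). Klra3 was likewise without a count in Treg cells and at 13.2 to 52.1 CPM in CD8 libraries, at least 719.7-fold higher (edgeR adjusted p = 0.00465). The Ly49 genes are close copies of each other, so how reads were shared among them is uncertain. Klre1 was at 71.0, 41.7, 76.4 and 37.9 CPM in CD8 and at 0, 0.366, 0 and 0 CPM in Treg libraries (log2 9.16, SE 1.10, edgeR adjusted p = 0.00386). Only Treg library 2 held any Klre1 counts among the Treg libraries.

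Klrd1, which encodes CD94, the partner chain of NKG2A, was at 632, 235, 672 and 307 CPM in CD8 and at 0.843, 0, 5.38 and 6.01 CPM in Treg libraries (log2 7.23, SE 1.10, edgeR adjusted p = 0.0107). Neither Klrc1 nor Klrk1 passed. Klrc1, the NKG2A chain, ranged from 98.6 to 777 CPM in CD8 and from 0 to 27.1 CPM in Treg libraries (edgeR adjusted p = 0.0623), and Klrk1, the NKG2D receptor, from 393 to 634 and from 0 to 23.3 CPM (edgeR adjusted p = 0.0665). Klrd1, Klrc1 and Klrk1 were named after their values were seen. Per length, Klrd1 was the highest of the list in CD8 cells, at 848 ± 304 TPM. Klrg1, which marks terminal effector CD8 cells and activated Treg cells alike, went the other way. It was at 27.7, 26.5, 13.8 and 29.5 CPM in CD8 and 227, 230.3, 441 and 329 CPM in Treg libraries, a 12.6-fold difference (edgeR adjusted p = 0.001).

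The Klr genes among the 8 higher in CD8 lie together on chromosome 6, in the natural killer gene complex; Crtam lies on chromosome 9 and Cd160 on chromosome 3, and Klrg1 lies on chromosome 6 outside the interval below. Between the first and the last Klr gene tested there, at chr6:128778485-130386874 (mm10, Klrb1c to Klra1), 8 of 23 genes tested were higher in CD8 and none was higher in Treg cells. Over the rest of the genome 79 of 11927 genes (0.662%) were higher in CD8. The 8 were Klre1, Klrd1, Klra6, Klra9, Klra7, Klra3, Klra1 and the pseudogene Klra13-ps, all from Klre1 to the end of the interval. The interval was drawn after the calls were seen and is bounded by Klr genes. Its Klra members are Ly49 genes, close copies among which reads may be shared, so the 8 are not separate results.

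Markers of natural killer cells were higher in the same libraries: the 11 marker genes summed to 229.7 to 335 CPM in CD8 and 37.4 to 145 CPM in Treg libraries. Most of that sum came from Eomes, Gzma and Cd7, genes that natural killer cells and CD8 cells can both make. Ncr1, a defining gene of natural killer cells, had no count in any CD8 library. Klrb1c, the gene of NK1.1, had counts in all 4 CD8 libraries (1.7 to 12.9 CPM), with means of 5.42 CPM in CD8 and 0.255 CPM in Treg libraries. Klri2 (14.6 and 0.706 CPM), Fcer1g (19.5 and 12.1 CPM) and Klra8 (1.53 and 0.299 CPM) also had higher means in CD8 libraries. Other markers had higher means in Treg libraries. These were Tyrobp (3.23 CPM in CD8 and 15.9 CPM in Treg), Itga2 (1.765 and 9.02 CPM), Klra4 (0 and 2.06 CPM) and Ncr1 (0 and 0.991 CPM). The Ncr1 and Klra4 counts were all in Treg library 3. The part of other cells in these values was not tested. T-cell receptor genes were high in all 8 libraries, with Cd3e at 554 to 956 CPM in CD8 and 796 to 1089.5 CPM in Treg libraries. CD8 library 2 was the lowest of the 8 for Cd3e, Cd3d, Cd3g and Trac, at 554, 815, 895 and 721 CPM. The part of this in its other values was not tested.

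Cytotoxic genes were unevenly split. Of 16 tested, 4 were higher in CD8 cells (Gzmk, Ctsw, Gzmm and Gzma), against 0.728% of all genes tested. Higher in Treg cells was 1 of the 16 (Srgn), against 1.35%, and the median log2 difference was 1.10. Gzmk, which encodes granzyme K, was at 209.6, 302, 138 and 213 CPM in CD8 and at 1.36, 2.62, 0 and 0 CPM in Treg libraries (216-fold, edgeR adjusted p = 0.00854). It held under all 16 alternatives tried. Ctsw, a cathepsin of cytotoxic cells, was 3.52-fold higher in CD8 cells (edgeR adjusted p = 0.0107; 0.0545 without Treg library 2).

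Gzma, which encodes granzyme A, was at 37.6, 43.8, 61.9 and 71.7 CPM in CD8 and 2.85, 4.57, 4.89 and 15.6 CPM in Treg libraries. The groups did not overlap, and Treg library 4 was the highest of its group (7.70-fold, edgeR adjusted p = 0.0316). Gzmm, granzyme M, had no count in Treg libraries and was at 3.88 to 28.8 CPM in CD8 libraries, at least 335-fold higher (edgeR adjusted p = 0.0213). Neither was firm. The Gzma call was lost without Treg 1, Treg 2, Treg 3, CD8 1, CD8 3 or CD8 4 (adjusted p up to 0.114), and the Gzmm call without Treg 2, CD8 1, CD8 3 or CD8 4 (up to 0.082). Without Treg library 2, 1 of the 16 cytotoxic genes was higher in CD8 cells.

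Gzmb, the granzyme B gene, did not separate the populations. It was at 1711, 470.4, 1209.6 and 785 CPM in CD8 and at 639, 774, 460.3 and 672 CPM in Treg libraries (log2 0.71, SE 0.36, edgeR adjusted p = 0.47). CD8 libraries 1 and 3 lay above all Treg libraries, and CD8 library 2 lay among them. Per length, Gzmb was the most abundant granzyme in both populations, at 1697 ± 650.4 TPM in CD8 and 1070.5 ± 285 TPM in Treg libraries. Prf1, which encodes perforin and was named after its values were seen, was at 398, 259, 503 and 348 CPM in CD8 and 73.7, 62.8, 14.7 and 178 CPM in Treg libraries. The groups did not overlap, but the test did not pass (log2 2.20, SE 0.60, edgeR adjusted p = 0.111). Srgn, the proteoglycan that packs granzymes in granules, was 3.10-fold higher in Treg cells (edgeR adjusted p = 0.0185), a call lost without Treg 2, Treg 3, Treg 4, CD8 3 or CD8 4.

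Cytokine genes showed wide spread among the CD8 libraries. Of 22 tested, 2 were higher in CD8 cells (Spp1 and Xcl1) and 1 in Treg cells (Ebi3), against 0.728% and 1.35% of genes tested. Xcl1, a chemokine that attracts cross-presenting dendritic cells, was at 205, 71.9, 387 and 58.9 CPM in CD8 and 25.5, 26.2, 31.3 and 21.5 CPM in Treg libraries, which did not overlap (6.91-fold, edgeR adjusted p = 0.0372). Spp1, which encodes osteopontin, was at 806, 129.8, 277 and 111 CPM in CD8 and 7.91, 2.87, 6.46 and 0 CPM in Treg libraries (76.5-fold, edgeR adjusted p = 0.0257). CD8 libraries 1 and 3 were the high ones for both genes, as they were for Ifng. Ifng, the interferon-gamma gene, was at 281, 21.7, 475 and 137 CPM in CD8 and 28.1, 35.8, 19.3 and 32.9 CPM in Treg libraries, and with CD8 library 2 inside the Treg range it did not pass (edgeR adjusted p = 0.0736). The calls of Spp1 and Xcl1 were each lost without Treg 1, Treg 2, Treg 3, CD8 1 or CD8 3 (adjusted p up to 0.108 and 0.134), that of Xcl1 also without Treg 4.

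Jaml, the gene of the antibody's target, was a CD8 gene here. It was at 24.4, 71.7, 14.9 and 25.4 CPM in CD8 libraries and at 0, 0, 0.217 and 0 CPM in Treg libraries, where 4 counts in Treg library 3 were all that was found. CD8 library 2 was the highest, and the groups did not overlap (log2 9.01, SE 1.24, edgeR adjusted p = 0.00633). The gene (ENSMUSG00000048534.7) lies at chr9:45079183-45108534 on the plus strand in mm10. It passed in all 8 fits that leave out 1 library. None of 6 chains of PI3 kinase, the enzyme JAML is known to recruit, passed, and Cxadr, which encodes its ligand, had too few counts to test, 42 in CD8 and 51 in Treg libraries.

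With all 24 libraries scaled together, which shifts CPM slightly, Jaml in CD8 cells was at 33.5 ± 24.4 CPM with anti-JAML, 11 ± 7.32 CPM with isotype and 47.8 ± 16.7 CPM with anti-PD-1. In Treg cells it was at 0.0522 ± 0.104, 0.194 ± 0.388 and 2.7 ± 0.952 CPM in that order (SD, n = 4 each). The CD8 libraries were thus above the Treg libraries under each antibody. The log2 differences were 5.86 (SE 1.12) after isotype, 4.14 (SE 0.99) after anti-PD-1 and 9.05 (SE 1.30) after anti-JAML. The difference after anti-JAML did not exceed the others in the edgeR interaction test after adjustment (adjusted p = 0.587 against isotype and 0.835 against anti-PD-1).

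The 120 bases before the start of Jaml and of Gzma are shown because both promoters hold TGTGGT, the core that RUNX factors bind, close to the start. The sequences are RefSeq's, build GRCm38.p6, 5′ to 3′ on the gene's strand, with matches to the core or its reverse complement ACCACA in capitals. Jaml was read from chr9:45079063-45079182, plus strand, and Gzma from chr13:113100982-113101101, minus strand.
Jaml: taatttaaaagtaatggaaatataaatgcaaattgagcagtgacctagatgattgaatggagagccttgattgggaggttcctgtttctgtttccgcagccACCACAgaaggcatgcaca
Gzma: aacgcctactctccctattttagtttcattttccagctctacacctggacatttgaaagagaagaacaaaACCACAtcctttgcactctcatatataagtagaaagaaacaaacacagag
The core begins 19 bases before the start in Jaml and 50 in Gzma, on the strand opposite to the gene in both. In windows of 300 bases (250 before to 50 after the start, both strands) it was found at 14 of 18 cytotoxic genes with an entry and 8 of 16 killer-cell receptor genes, against 5113 of all 27025 genes (18.9%). Among genes tested the values were 10 of 14 and 6 of 13, against 1367 of 8803 (15.5%). The tested cytotoxic genes with it were Gzma and Gzmm, higher in CD8, and Srgn, higher in Treg cells. The others, Gzmb, Gzmc, Lamp1, Nkg7, Prf1, Rab27a and Serpinb9, did not pass. Among genes that passed the test it was found at 14 of 64 higher in CD8 (21.9%) and 19 of 110 higher in Treg (17.3%). The cytotoxic matches include Gzmb, Gzmc, Gzmd, Gzme, Gzmf and Gzmg, and the receptor matches include Klrc1, Klrc2 and Klrc3. Genes of the same family may share promoter sequence by descent, so these counts are not independent. A core of this length occurs often, and a match is not a bound site.

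Transcription factors of CD8 cells were mixed. Eomes, a T-box factor of effector and memory CD8 cells, was at 30.4, 97.9, 33.9 and 112 CPM in CD8 libraries and had no count in Treg libraries, at least 1503-fold higher (edgeR adjusted p = 0.0034). CD8 libraries 2 and 4 were higher than 1 and 3. Tbx21, the related T-bet gene, had means of 39.6 ± 22.5 and 44.4 ± 16.3 CPM and Runx3 of 47.5 ± 21.2 and 49.5 ± 14.0 CPM in CD8 and Treg libraries, and neither passed (edgeR adjusted p = 0.948 and 0.978; both named after their values were seen). Prdm1, which encodes Blimp-1, was 5.42-fold higher in Treg cells (edgeR adjusted p = 0.0235) and Nfil3 3.23-fold higher (edgeR adjusted p = 0.0269). The Prdm1 call was lost without Treg 1, Treg 2, Treg 3, CD8 1 or CD8 4, and the Nfil3 call without Treg 2, Treg 3, Treg 4, CD8 1, CD8 3 or CD8 4.

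Genes of naive and memory T cells leaned to the CD8 side. Of 15 tested, 14 had a higher fitted level in CD8 cells and the median log2 difference was 1.57, but 2 passed, Tcf7 and Bcl2. The share that passed as higher in CD8 over all genes tested was 0.728%. Tcf7, which encodes TCF-1, a factor of stem-like and memory CD8 cells, was at 96.0, 385, 101 and 238 CPM in CD8 and 29.0, 35.1, 11.6 and 12.5 CPM in Treg libraries. Every CD8 library lay above every Treg library, and CD8 libraries 2 and 4 were the highest (9.28-fold, edgeR adjusted p = 0.0206). Bcl2, which protects from cell death, was at 40.4, 119.9, 80.0 and 159 CPM in CD8 and 16.6, 22.1, 5.32 and 4.27 CPM in Treg libraries (edgeR adjusted p = 0.0397). Klf2, a factor of circulating T cells, was at 63.3, 228, 63.0 and 78.5 CPM in CD8 and 14.5 to 31.0 CPM in Treg libraries (edgeR adjusted p = 0.0552). CD8 libraries 2 and 4, high in these genes, were also those with erythroid counts, and the part of these in the result was not tested. Without both libraries none of the 15 passed. The Tcf7 call was also lost without any single Treg library (adjusted p up to 0.0711), and the Bcl2 call without any single library of the 8 (up to 0.0963).

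Interferon-induced genes leaned to the Treg side. Every one of 20 type I interferon-induced genes and of 14 guanylate-binding and immunity-related GTPase genes tested had a lower fitted level in CD8 than in Treg cells, with median log2 differences of -1.28 and -1.29. Of the 20, 5 passed, among them Isg20, Rtp4, Oas1a and Zbp1, and of the 14, 6 passed (Igtp, Iigp1, Irgm1, Gbp4, Gbp2 and Gbp3). Over all genes tested, 1.35% passed as higher in Treg cells. Members of each list are induced by the same cytokines and do not vary independently.

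Isg20, an exonuclease induced by interferon, was at 48.0, 36.4, 46.6 and 43.0 CPM in CD8 and 207, 232, 317 and 358 CPM in Treg libraries. The groups lay far apart (6.4-fold, edgeR adjusted p = 0.000918). Rtp4 was 3.44-fold higher (edgeR adjusted p = 0.00504). Oas1a, a sensor of double-stranded RNA, was 3.98-fold higher (edgeR adjusted p = 0.0247), a call lost without any single Treg library, CD8 3 or CD8 4.

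The GTPases defend cells from intracellular pathogens. Igtp was at 270.0, 157, 196 and 181 CPM in CD8 and 607, 592, 735 and 805 CPM in Treg libraries, and Irgm1 at 106, 117, 94.5 and 112 and at 272, 210.2, 324 and 337 CPM (3.41-fold and 2.66-fold, edgeR adjusted p = 0.00455 and 0.00866). Iigp1 showed the widest difference of the list, 8.13-fold, with 49.8, 16.0, 12.4 and 25.6 CPM in CD8 and 179, 210.3, 255 and 199 CPM in Treg libraries (edgeR adjusted p = 0.00717). In all of these the highest CD8 library lay below the lowest Treg library. The number of GTPase genes that passed was 3 without Treg 1, Treg 2, Treg 4, CD8 1, CD8 3 or CD8 4 and 9 without CD8 2, and the number of type I genes was 3 without any single Treg library, CD8 3 or CD8 4.

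The promoters of the GTPase genes share an element, shown here because the whole list lay on one side. All 10 of its genes with a RefSeq promoter entry held GAAA, any 2 bases and GAAA, on either strand, the core of the interferon-stimulated response element, in the window of 300 bases, against 1079 of all 27025 genes (3.99%) and 8 of 15 type I interferon-induced genes. Below are 30 bases around the match in the 4 that passed and in 3 that did not (Irgm2, Gbp7 and Tgtp1), 5′ to 3′ on the gene's strand, build GRCm38.p6, with the match in capitals.
Igtp (chr11:58199512-58199541, plus): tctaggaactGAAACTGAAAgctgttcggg
Irgm2 (chr11:58214903-58214932, plus): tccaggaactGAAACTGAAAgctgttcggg
Irgm1 (chr11:48871428-48871457, minus): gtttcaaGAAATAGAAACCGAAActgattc
Tgtp1 (chr11:48992304-48992333, minus): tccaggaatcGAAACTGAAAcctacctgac
Gbp2 (chr3:142620594-142620623, plus): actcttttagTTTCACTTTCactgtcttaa
Gbp3 (chr3:142559992-142560021, plus): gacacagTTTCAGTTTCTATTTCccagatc
Gbp7 (chr3:142530273-142530302, plus): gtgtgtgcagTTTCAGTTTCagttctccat
The chromosome 11 genes carry the element on the gene's own strand and the chromosome 3 genes on the other. Irgm1 and Gbp3 hold 2 overlapping matches. Igtp and Irgm2 are nearly the same over the bases shown, so the genes of the list are not independent counts. The element was as present in members that did not pass as in those that did. It was found at 14 of 110 genes higher in Treg (12.7%), 5 of 64 higher in CD8 (7.81%) and none of 16 killer-cell receptor or 16 Treg identity genes.

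**Figure D3:**
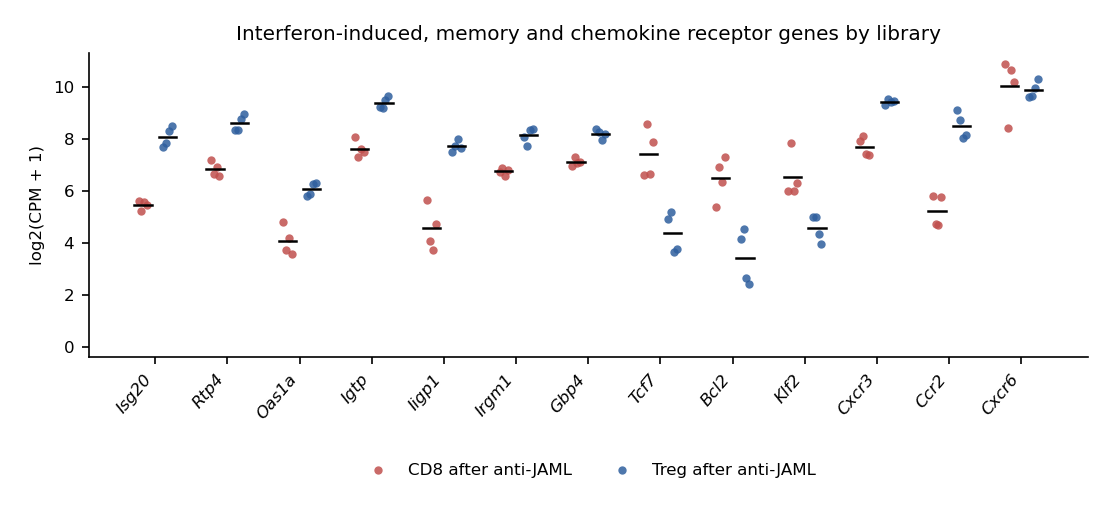
Levels of 13 interferon-induced, memory and chemokine receptor genes in the 8 anti-JAML libraries as log2(CPM + 1), drawn as red (CD8) and blue (Treg) points with a black line at the mean of the 4 log2 values. Treg libraries lie above CD8 libraries at Isg20 through Gbp4 and at Cxcr3 and Ccr2, CD8 libraries lie above at Tcf7, Bcl2 and Klf2, and Cxcr6 overlaps.

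Chemokine receptors that passed were all higher in Treg cells, 5 of 19 tested (Ccr4, Ccr2, Ccr1, Cxcr3 and Ccr8), against 1.35% of genes tested. The median log2 difference of the list was -0.76. Ccr4, the receptor of CCL17 and CCL22, had no count in CD8 libraries and was at 43.8, 40.5, 26.9 and 23 CPM in Treg libraries, at least 655-fold higher (edgeR adjusted p = 0.00268). Ccr1 was likewise without a CD8 count, at 17.8 to 33.3 CPM in Treg libraries and at least 463-fold higher (edgeR adjusted p = 0.00401). Ccr2 was at 54.7, 25.8, 24.6 and 53.5 CPM in CD8 and 562, 428, 266 and 284 CPM in Treg libraries (9.71-fold, edgeR adjusted p = 0.00361).

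Cxcr3, the receptor of interferon-induced chemokines, was 3.25-fold higher in Treg cells, at 213 ± 53.8 CPM in CD8 and 691 ± 46.5 CPM in Treg libraries (SD, n = 4, edgeR adjusted p = 0.00455). Cxcr6, a receptor of tissue-resident T cells, was the highest of the list per length in both populations, at 1506 ± 678 TPM in CD8 and 1182 ± 151 TPM in Treg libraries. It did not pass (log2 0.39, SE 0.44, edgeR adjusted p = 0.819), and its CD8 values ran from 342 CPM in library 2 to 1928 CPM in library 1.

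Signalling genes differed singly. Themis, a regulator of T-cell receptor signalling, was at 325, 271, 288 and 375 CPM in CD8 and 77.5, 26.5, 44.7 and 25.0 CPM in Treg libraries (7.25-fold, edgeR adjusted p = 0.00527). Cd5, an inhibitor of that signalling, was 4.25-fold higher in Treg cells (edgeR adjusted p = 0.00399). Dusp1, a phosphatase of MAP kinases induced on activation, was at 276, 309, 228 and 189.5 CPM in CD8 and 958, 1153, 882 and 1038 CPM in Treg libraries, a clear gap (4.02-fold, edgeR adjusted p = 0.00235). Of 21 proximal signalling genes 2 were higher in CD8 (Themis and Sh2d1a) and 1 in Treg cells (Cd5). Of 19 early activation genes 2 were higher in Treg cells (Dusp1 and Nfkbia). The shares over all genes tested were 0.728% higher in CD8 and 1.35% higher in Treg cells. The Sh2d1a call was lost without Treg 1, Treg 2, Treg 3, CD8 1, CD8 3 or CD8 4 (adjusted p up to 0.12), and that of Nfkbia without Treg 2, Treg 4 or CD8 3 (up to 0.0602).

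Other genes with the smallest p-values on the CD8 side were Samd3, at 69.1, 63.6, 46.1 and 111 CPM in CD8 and 2.85, 3.35, 2.66 and 3.75 CPM in Treg libraries (22.9-fold, edgeR adjusted p = 0.000682), Ms4a4b, a membrane protein of T cells (3.5-fold, edgeR adjusted p = 0.00314), and Cd7 (6.41-fold, edgeR adjusted p = 0.00401). On the Treg side Dgat1, an enzyme that makes triglycerides, was at 55.1, 53.0, 55.6 and 29.4 CPM in CD8 and 435, 614, 354 and 323 CPM in Treg libraries (8.94-fold, edgeR adjusted p = 0.00115). The groups did not overlap at any of these 4 genes. This was so for all 87 genes that passed as higher in CD8 and 160 of the 161 higher in Treg.

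No proliferation gene of 24 tested passed. All 24 had a higher fitted level in CD8 cells, with a median log2 difference of 0.41. Of them 1 had libraries that did not overlap, near the share over all genes tested (498 of 11950 with CD8 higher, 4.17%). Rrm2, a subunit of ribonucleotide reductase, was at 548, 483, 602 and 629 CPM in CD8 and 255, 226, 444 and 196 CPM in Treg libraries (edgeR adjusted p = 0.104). None of 16 glycolysis genes (median log2 -0.49) and none of 22 genes of oxidative phosphorylation (0.23) passed. The fitted level was lower in CD8 cells for 15 of the 16 and higher for 20 of the 22. Libraries did not overlap at 3 glycolysis genes, all higher in Treg cells (7.23% over all genes tested), and at no gene of oxidative phosphorylation. At an unadjusted p under 0.05 there were 1, 5 and 0 genes in the 3 lists. DESeq2 called 1, 3 and 0 of them, and limma voom 1, 0 and 0.

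**Figure D4:**
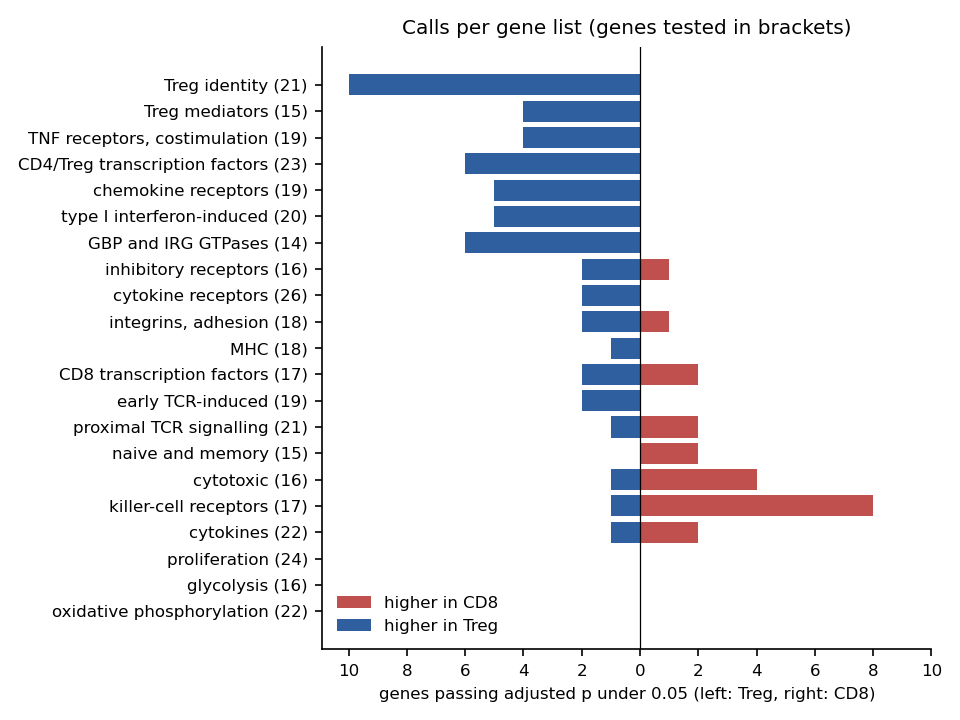
Number of genes of each list that passed at an adjusted p under 0.05, to the left for genes higher in Treg and to the right for genes higher in CD8 cells, with the number tested in brackets. Treg identity (10) and killer-cell receptors (8) have the most calls, and proliferation, glycolysis and oxidative phosphorylation have none.

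Markers of cells other than T cells were low, with exceptions. The 13 macrophage and monocyte genes summed to 1056 to 2067 CPM in CD8 and 45.9 to 203 CPM in Treg libraries. Most of the CD8 sum was Ly6c2 (1286 CPM on average), which monocytes and memory-type CD8 cells can both make. C1qa, Csf1r and Adgre1 were each without a count in 3 of 4 CD8 libraries, while Lyz2 reached 426 CPM in CD8 library 2 and Cd68 had counts in all 8 libraries, with means of 24 and 16.1 CPM. The dendritic cell genes summed to 235 CPM in Treg library 3, of which Cd209a was 173 CPM, and to at most 43.0 CPM in the other 7. The B-cell genes Ms4a1 and Pax5 had no count in the 8 libraries, and Ighm was at 437 CPM in CD8 and 901 CPM in Treg libraries on average. Cd79b had counts in all 8 (2.79 to 40.2 CPM), as did Igkc, which was at 162 and 168 CPM in CD8 libraries 2 and 4 and at 20.3 to 58.7 CPM in the other 6. The part of these transcripts in the results above was not tested.

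The same 2 populations were sorted under the other antibodies, so the pattern was set beside theirs in a fit of all 24 libraries. There, 666 of 14591 genes (4.56%) differed between CD8 and Treg cells with anti-JAML, 327 higher in CD8 (2.24%) and 339 in Treg (2.32%). With isotype 1737 differed (11.9%), 1034 (7.09%) and 703 (4.82%) in each direction, and with anti-PD-1 741 (5.08%), 357 (2.45%) and 384 (2.63%). The 3 pairs share no library. Of the 248 genes of the anti-JAML comparison, 245 had the same sign after isotype and 246 after anti-PD-1. The exceptions were Zfp110, Plcg2 and the segment Trbv30 after isotype, and B430306N03Rik and the segment Trbv1 after anti-PD-1. The share with the same sign over all genes tested was not taken. After isotype 192 of the 248 were also called with the same sign (77.4% of them and 11.1% of the isotype calls), and after anti-PD-1 179 were (72.2% and 24.2%). These percentages set calls of the fit of 8 libraries against calls of the fit of 24, which itself called 666 genes after anti-JAML. In all 3 pairs 160 were called, 52 higher in CD8 and 108 higher in Treg cells.

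List medians were also taken from that fit. For Treg identity they were -2.53 with anti-JAML, -3.04 with isotype and -3.09 with anti-PD-1. The GTPase genes gave -1.2, -1.75 and -1.09, and the killer-cell receptors 5.48, 7.01 and 4.72. Naive and memory genes gave 1.65 after anti-JAML, 0.08 after isotype and 0.19 after anti-PD-1, and proliferation genes gave 0.51, 1.2 and 0.45. No test was made of the difference between these medians.

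Whether the CD8-to-Treg difference itself changed with the antibody was tested gene by gene. By edgeR's interaction test no gene of 14591 (0%) passed, against isotype (1224 genes at an unadjusted p under 0.05) or against anti-PD-1 (821). DESeq2 called 275 and 141 genes and limma voom 0 and 2. Genes without a count in one population give poor interaction estimates, and 46 of the 248 were of that kind. The lowest adjusted p against isotype was that of Ttl, 0.0961. Ttl, an enzyme that modifies tubulin, had no count in the isotype Treg libraries and 0.474 to 10.3 CPM in the Treg libraries after anti-JAML. Gab3, an adaptor protein, was at 58.4 ± 14.1 CPM in CD8 and 18.7 ± 6.20 CPM in Treg cells after anti-JAML, at 15.6 ± 1.36 and 25.5 ± 6.62 CPM after isotype and at 24.1 ± 6.37 and 15.8 ± 4.82 CPM after anti-PD-1 (SD, n = 4, edgeR adjusted p = 0.109 for anti-JAML against isotype).

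Tcf7 illustrates how far the levels could move without passing. In CD8 cells it was at 96.1, 372, 101 and 235 CPM after anti-JAML, at 17.7, 20.4, 51.2 and 59.1 CPM after isotype and at 20.9, 20.5, 48.7 and 24.1 CPM after anti-PD-1. All 4 anti-JAML CD8 libraries lay above the 8 others, while the Treg means were 20.3, 31.5 and 15.7 CPM. The log2 difference between CD8 and Treg cells was 3.3 (SE 0.57) after anti-JAML, 0.24 (SE 0.52) after isotype and 0.86 (SE 0.53) after anti-PD-1. The edgeR interaction had an unadjusted p of 0.000481 against isotype and 0.00351 against anti-PD-1, and adjusted p of 0.368 and 0.835.

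Crtam, an adhesion receptor of activated CD8 cells, was at 72.3, 105, 86.1 and 10.7 CPM in CD8 cells after anti-JAML with no count in Treg cells, against Treg means of 7.01 ± 13.5 CPM after isotype and 2.33 ± 2.39 CPM after anti-PD-1 (SD, n = 4). The isotype mean came mostly from 1 library at 27.2 CPM. The fitted log2 difference of Crtam between CD8 and Treg cells was 2.16 after isotype and 4.1 after anti-PD-1. That after anti-JAML, 13.1, comes with no Treg count and is not a bound. Spp1 was at 4.02 ± 3.33 CPM in Treg cells after anti-JAML, 62.0 ± 24.8 CPM after isotype and 284 ± 178 CPM after anti-PD-1, with CD8 means of 329, 630.1 and 1197 CPM. Neither passed the interaction tests (edgeR adjusted p against isotype 0.368 for Crtam and 0.407 for Spp1, and against anti-PD-1 0.835 for both).

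**Figure D5:**
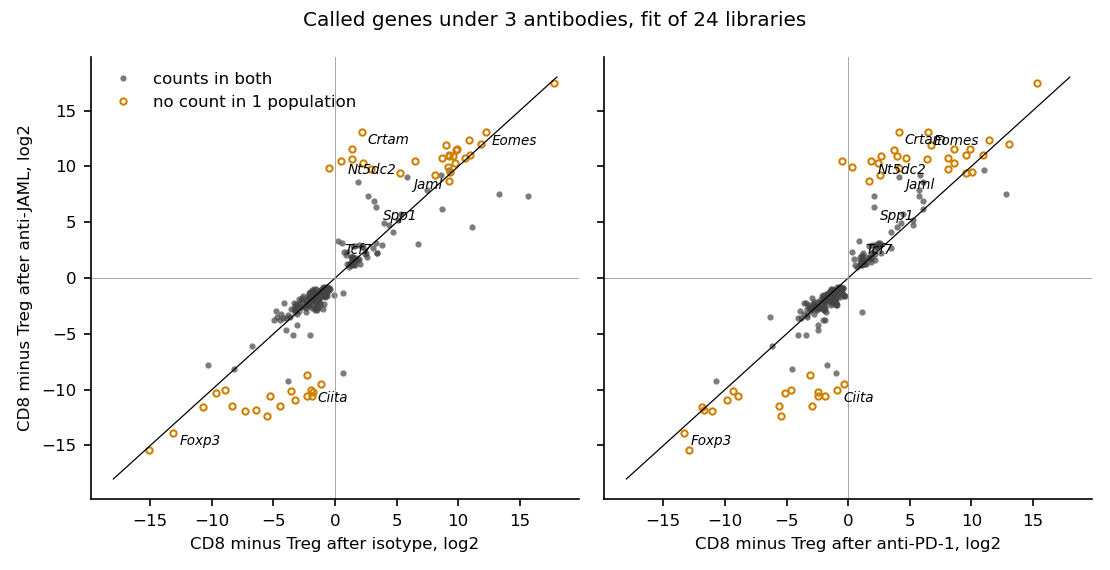
Fitted log2 difference between CD8 and Treg cells for the 248 genes after anti-JAML (vertical) against isotype (left) and anti-PD-1 (right), from the fit of 24 libraries; the line marks equal values. Open orange points are the 46 genes with no count in one anti-JAML population, whose fitted values are not bounds. Of the 248, 245 and 246 genes have the same sign, a share not taken over all genes tested.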

How the data were processed

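The authors deposited raw counts, with 1 whole number for every gene in each library, and a table of TPM, per the file headers. The submitters' processing notes name fastp 0.20.1, STAR 2.7.3a, SAMtools, deepTools 3.3.1 and mm10; which counter, strandedness and gene models were used is not given in the sources used here. Reads of overlapping and antisense genes therefore cannot be told apart. Groups and replicate numbers came from the labels. Of 54957 genes, 22167 had a count in the 8 libraries and 11950 passed edgeR's filter (minimum count 10, minimum total 15). No row lacked a gene name. Identifiers matched GENCODE M21 for 98.64% of genes; Tcf7 has no coordinates here.

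The main test was edgeR 4.0.16 (quasi-likelihood, robust, TMM normalization, R 4.3.3) on the 8 anti-JAML libraries, two-sided, with Benjamini-Hochberg adjustment at 0.05; it was tested on simulated data. Interaction terms and values set beside the other antibodies came from 1 fit of all 24 libraries. CPM use TMM library sizes of the fit concerned; TPM were used only to set genes side by side. For a gene without counts in a group, a fold was bounded with 3 counts summed over the group's libraries, a limit for counting error alone. Alternatives were DESeq2 1.42.0, limma voom 3.58.1, RLE factors, no filter, a replicate block, genes detected as a covariate, and libraries left out.

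Genes named were the 10 smallest p-values in each direction (without predicted genes and receptor segments), up to 4 members of each list and direction by p, the genes nearest to passing each interaction test, the 4 highest markers of each other cell type, and Jaml, Pdcd1 and the sorted genes; others are said to be named after their values were seen or stand in a full list of members. Some genes of the lists are counted but not reported here by name. The members and lists were chosen with earlier results of these data known. Whether a replicate number pairs a CD8 with a Treg library is not stated in the labels, and the main fit was unpaired. Deviations of same-numbered libraries correlated at -0.05 to 0.09 and those of differently numbered ones at -0.12 to 0.14. So few libraries cannot settle the question.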

Additional observations from a re-analysis of the deposited data

Results flagged for a closer look

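In 182 groups of 4 libraries (each gene described, in CD8 or in Treg), 11 values (6.04%) lay apart from the other 3 by Dixon's 95% limit, where chance gives about 1 in 20. In CD8 library 2, Rora was at 52.7 CPM (31.1 to 33.8 CPM in the others), Klf2 at 228 CPM (63.0 to 78.5 CPM) and Il10 at 24.1 CPM (0 in the others). In CD8 library 4, Pdcd1 was low at 286 CPM (687 to 729 CPM in the others), Dgat1 low at 29.4 CPM (53.0 to 55.6 CPM) and Ebi3 high at 16.3 CPM (3.03 to 3.71 CPM). In CD8 library 1, Ldhb was low at 13.2 CPM (20.7 to 22.2 CPM).

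In Treg library 2, Klre1 was at 0.366 CPM and in Treg library 3 Jaml was at 0.217 CPM, each with no count in the other 3. Gzma was at 15.6 CPM in Treg library 4 (2.85 to 4.89 CPM in the others), and Dgat2 at 38.3 CPM in Treg library 2 (7.99 to 13.0 CPM). CD8 libraries 2 and 4 hold 6 of the 11 values, and they are the CD8 libraries with erythroid counts; the part of these in the values was not tested.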

How the results depend on the processing

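For CD8 against Treg after anti-JAML (248 genes, 87 higher in CD8 and 161 in Treg), the count was 666 (327 and 339) in the fit of 24 libraries, 747 (328 and 419) with DESeq2, 95 (28 and 67) with a replicate block, and 57 higher in CD8 without CD8 libraries 2 and 4; leaving out 1 library gave 82 to 328 (26 to 95 and 56 to 233). For CD8 against Treg after isotype, from the fit of 24 libraries, DESeq2 gave 2638 (1367 higher in Treg) and no filter 643 higher in CD8; leaving out 1 library gave 1292 to 1912 (775 to 1110 and 509 to 892). For CD8 against Treg after anti-PD-1, from the fit of 24 libraries, DESeq2 gave 1457 (621 higher in CD8), voom 578 and no filter 177 higher in CD8, and leaving out CD8 anti-JAML libraries 2 and 4 gave 1120 (554 higher in CD8); for CD8 against Treg after anti-PD-1, from the fit of 24 libraries, higher in Treg, DESeq2 gave 836; leaving out 1 library gave 382 (without CD8 anti-PD-1 library 1) to 1079 (without Treg anti-PD-1 library 1), with 136 to 628 and 224 to 505. The interaction against isotype gave 275 (144 and 131) with DESeq2 and 0 to 19 (0 to 3 and 0 to 16) leaving out 1 library, the 19 without Treg isotype library 4; that against anti-PD-1 gave 141 (72 and 69) with DESeq2, 2 (2 higher in CD8) with voom and 0 to 0 leaving out 1 library. The cause of these moves was not tested. Of the 64 named genes that passed, 40 passed in all 8 fits that leave out 1 library, and none of the 64 changed direction under any of the 16 alternatives; 15 genes that did not pass had estimates on both sides of 0, among them Pdcd1 (-0.46 to 0.04) and Lag3 (-0.06 to 0.49). Whether the replicate numbers mark a pairing is not known. Under the replicate block Jaml had an edgeR adjusted p of 0.0532, and 8 Treg identity, 4 killer-cell receptor, 2 cytotoxic and 2 GTPase genes passed. Depth limits genes at or near 0 in a population: 46 of the 248 had no count in one, and their fitted values are not bounds.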

Other observations

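Genes outside the lists also separated the populations; those below were chosen singly after their values were seen and stand for no group of genes. The first 5 were higher in Treg cells. Hif1a, the oxygen-sensitive transcription factor, was at 145, 272, 133 and 254 CPM in CD8 and 889.9, 996, 551 and 640.2 CPM in Treg libraries (3.82-fold, edgeR adjusted p = 0.0136). Hilpda, a lipid droplet protein, was 4.19-fold higher (edgeR adjusted p = 0.0173), and Bnip3, a mitophagy receptor, 5.62-fold higher (edgeR adjusted p = 0.00861). Dgat2 had no count in CD8 libraries and was at 7.99 to 38.3 CPM in Treg libraries (at least 334-fold higher, edgeR adjusted p = 0.0161). Ldhb, a lactate dehydrogenase chain, was 5.58-fold higher (edgeR adjusted p = 0.00501). The groups did not overlap at any of these 5 genes, as was so for 160 of the 161 genes that passed as higher in Treg.

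The next 7, chosen in the same way, were higher in CD8 cells. Mettl1, which methylates transfer RNA, was at 52.6, 42.1, 47.0 and 54.1 CPM in CD8 and 8.30, 10.2, 15.4 and 9.18 CPM in Treg libraries (4.54-fold, edgeR adjusted p = 0.0131). Its partner Wdr4 was 3.09-fold higher (edgeR adjusted p = 0.0304). Gnl3, a nucleolar GTPase, was 2.83-fold higher (edgeR adjusted p = 0.0366), Wdr74 2.56-fold, Pum3 2.52-fold, Lyar 2.32-fold and Wdr43 2.16-fold (edgeR adjusted p = 0.0363, 0.035, 0.034 and 0.0471). The groups did not overlap at any of these 7 genes, as was so for all 87 genes that passed as higher in CD8.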
